A study of Mus musculus with 5 samples.

Results

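Collagen chain genes were followed in whole hearts of 3 NZB_W female mice with lupus nephritis and 2 healthy NZW female mice. Members were all genes whose symbol in the annotation of the probe sets reads Col, a type number, a and a chain number. The Affymetrix mouse genome array used carries 82 probe sets for 42 such genes, out of 18193 genes in all, and each gene is represented by its brightest probe set (mean of 5 arrays). Of the 42 genes, 11 encode fibrillar chains, 8 encode chains of the basement membrane, and 23 encode chains of other kinds. NZB_W is the F1 cross of NZB and NZW mice, which develops a spontaneous lupus-like disease. These animals were 12 to 15 weeks old and had moderate kidney injury by Austin scoring, and the NZW controls were of matched age with no kidney injury. No animal was treated, all were bled and perfused with saline before the heart was taken, and each array holds 1 heart by its title. Because every diseased heart was NZB_W and every healthy one NZW, strain and disease cannot be told apart.

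Collagens are extracellular proteins whose chains wind into helical trimers. In the heart, fibroblasts secrete most of the fibrillar types I and III, which form the stress-bearing network between muscle bundles, and excess deposition of these types is the hallmark of cardiac fibrosis. Type IV collagen forms the sheet-like scaffold of the basement membrane around cardiac muscle cells and capillaries, while type VI forms beaded filaments that link cells to the surrounding matrix.

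The 5 arrays had nearly equal distributions, with medians of the log2 expression level from 4.62 to 4.68. Cardiac muscle markers had a median level of 13.8 to 13.9 on every array, far above those medians. NZB_W array 3 stood apart from the other 4 arrays. Over the tested genes its correlation was 0.977 with NZB_W array 1 and 0.982 with NZB_W array 2, whose correlation with one another was 0.993. Its 5' minus 3' difference for the beta-actin control probe sets, a sign of RNA integrity, was -1.31. The same difference was -0.88 (NZB_W array 1) and -0.89 (NZB_W array 2), and in NZW it was -0.89 and -1.19. The main results below are therefore given with and without this array.

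Over both groups, collagen expression did not separate NZB_W from NZW hearts, and the arrays differed most within the NZB_W group. Of the 42 collagen genes, 26 (61.9%) lay above the median of their array on at least 2 arrays and were tested, against 65.4% of all genes. None of the 26 passed the limma test at an adjusted p of 0.05 over all genes, where 0.00841% of genes (1 of 11896) passed. None of them had an unadjusted p under 0.05 either, a level that 5.53% of all genes reached, and the smallest adjusted p among them was 0.859. The log2 difference, NZB_W minus NZW, was above 0 for 17 of the 26 (65.4%) and for 45.5% of all genes. Its median was 0.089 over the collagens and -0.014 over all genes. All 3 NZB_W arrays exceeded both NZW arrays in 1 of the 26, Col8a1, against 7.59% of all genes. In 0 of the 26 were all 3 NZB_W arrays below both NZW arrays, against 9.84% of all genes.

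**Figure D1:**
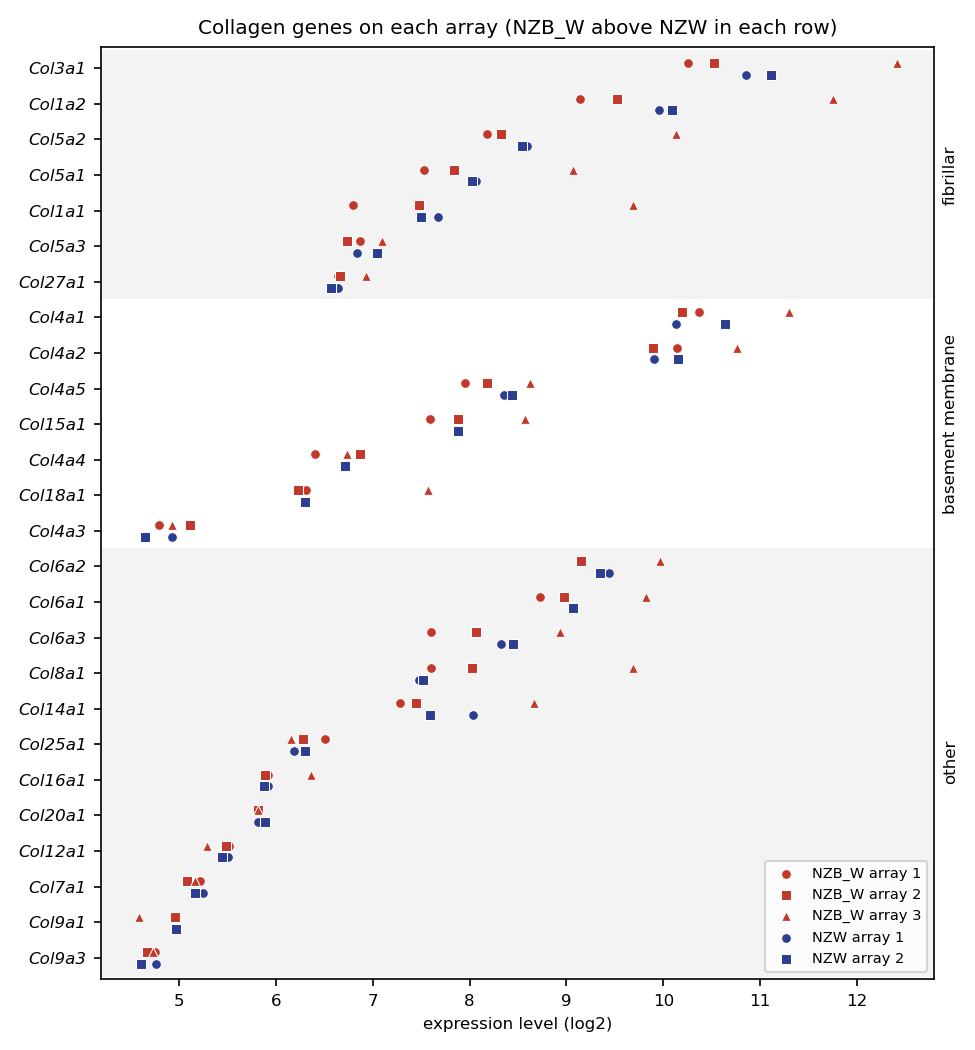
Expression level (log2, horizontal axis) of the 26 tested collagen genes on each of the 5 arrays, grouped by class and ordered by mean. Red symbols are NZB_W arrays and blue symbols NZW arrays, and the red triangle, NZB_W array 3, is the highest of the 5 in 18 of the 26 genes.

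NZB_W array 3 read higher than the other 4 arrays in 18 of the 26 collagen genes (69.2%), against 30.4% of all genes. It lay more than 1 log2 unit above the mean of NZB_W arrays 1 and 2 in 10 collagen genes (38.5%), against 1.82% of all genes. These 10 were the fibrillar genes Col1a1, Col1a2, Col3a1, Col5a1 and Col5a2, the basement membrane genes Col4a1 and Col18a1, and Col6a3, Col8a1 and Col14a1. When all 11896 genes were ranked by this deviation, Col1a1 ranked 13, Col1a2 ranked 19, Col3a1 ranked 29, Col5a2 ranked 34 and Col8a1 ranked 36. These counts and ranks describe 1 heart and carry no test.

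NZB_W arrays 1 and 2 lay on the other side of the controls in many of the same genes. Both were below both NZW arrays in 11 of the 26 genes (42.3%), against 17.4% of all genes. The 11 were Col1a1, Col1a2, Col3a1, Col5a1, Col5a2, Col4a5, Col15a1, Col6a1, Col6a2, Col6a3 and Col14a1. In Col8a1 alone among the 26 were both above both NZW arrays, against 11.9% of all genes. Some of the 11 were below by little. For Col15a1, NZB_W array 2 read 7.879, against 7.883 on both NZW arrays. For Col1a1 it read 7.477, against 7.498 on NZW array 2.

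The main fibrillar genes had the widest spread. Col1a1, the main chain of type I collagen, had log2 levels of 6.79, 7.48 and 9.69 in NZB_W hearts, against 7.67 and 7.50 in NZW hearts. Thus 2 NZB_W hearts lay below both controls and 1 lay far above them. The NZB_W mean was 7.99 ± 1.51 (SD, n = 3), beside an NZW mean of 7.58 ± 0.122 (SD, n = 2). The log2 difference was 0.40, with a 95% interval from -1.97 to 2.78 and a limma adjusted p of 0.941. Without NZB_W array 3 it was -0.45.

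Col1a2, the partner chain of type I collagen, read 9.14, 9.52 and 11.75 in NZB_W hearts, against 9.95 and 10.09 in NZW hearts. Its log2 difference was 0.11 (SE 0.84, limma adjusted p = 0.983), and -0.69 without NZB_W array 3. Col3a1, the chain of type III collagen, which forms the finer fibrils of the heart, read 10.26, 10.53 and 12.41 in NZB_W hearts, against 10.85 and 11.11 in NZW hearts. Its difference was 0.081 (SE 0.70, limma adjusted p = 0.986), and -0.59 without that array. In both genes the NZB_W values lay on either side of the NZW values, as in Col1a1. On NZB_W array 3 the 3 genes stood 5.86-fold (Col1a1), 5.34-fold (Col1a2) and 4.04-fold (Col3a1) above the mean of the other NZB_W arrays.

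The 250 bases before the annotated start of Col1a2 and Col3a1 are shown because the genes shared this array pattern. Those of Col8a1 are shown because its groups did not overlap, alone among the 26 tested collagen genes. Sequences are from RefSeq for GRCm38.p6, where 20 of the 26 tested genes have an entry. Capitals mark matches, on either strand, to the TATA box TATAAA, the CCAAT box CCAAT and the GC box GGGCGG, and in these windows no match overlapped another.
Col1a2, chr6:4505368-4505617, plus strand: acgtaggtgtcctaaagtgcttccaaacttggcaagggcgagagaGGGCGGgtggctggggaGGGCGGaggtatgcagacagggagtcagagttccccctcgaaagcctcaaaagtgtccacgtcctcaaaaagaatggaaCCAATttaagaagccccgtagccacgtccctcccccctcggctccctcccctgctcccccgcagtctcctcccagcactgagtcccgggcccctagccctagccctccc
Col3a1, chr1:45311288-45311537, plus strand: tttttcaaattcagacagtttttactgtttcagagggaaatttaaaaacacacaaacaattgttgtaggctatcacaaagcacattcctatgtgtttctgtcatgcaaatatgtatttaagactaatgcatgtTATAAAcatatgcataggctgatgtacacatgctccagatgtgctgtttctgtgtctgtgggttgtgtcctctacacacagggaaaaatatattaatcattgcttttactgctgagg
Col8a1, chr16:57754738-57754987, minus strand: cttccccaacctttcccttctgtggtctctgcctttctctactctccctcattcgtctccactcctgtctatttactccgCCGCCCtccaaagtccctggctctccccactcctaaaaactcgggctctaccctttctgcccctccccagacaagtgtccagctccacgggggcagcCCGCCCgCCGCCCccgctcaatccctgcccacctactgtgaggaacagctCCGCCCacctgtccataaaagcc
The Col1a2 window holds 1 CCAAT match and 2 GGGCGG matches, and the Col8a1 window 4 GGGCGG matches, all 4 on the opposite strand. The Col3a1 window holds 1 TATAAA match, which begins 117 bases before the annotated start. So the 3 windows share no element that all of them hold, among the motifs searched. Of the 20 collagen genes with an entry, 1 (5%) holds TATAAA, against 12.4% of all 32851 windows of this length. CCAAT occurs in 10 (50%), against 33.8% of all windows, and GGGCGG in 12 (60%), against 32.7%. Some genes have several windows, and all windows include genes that were not tested here, so these shares compare unlike sets. A match of letters is not evidence that a factor binds there.

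Type V collagen, which sits inside type I fibrils and sets their diameter, split by chain. Col5a2 read 8.18, 8.32 and 10.13 in NZB_W hearts, against 8.59 and 8.54 in NZW hearts. Col5a1 read 7.53, 7.84 and 9.07 in NZB_W hearts, against 8.07 and 8.03 in NZW hearts. Both had the pattern of the type I genes, with differences of 0.31 (Col5a2) and 0.097 (Col5a1) that became -0.32 and -0.37 without NZB_W array 3. Col5a3, the least common chain of this type, read 6.87, 6.73 and 7.09 in NZB_W hearts, against 6.84 and 7.04 in NZW hearts. Its groups overlapped and NZB_W array 3 was only 0.29 above the other NZB_W arrays, whereas Col5a1 was 1.39 above them and Col5a2 1.88. Col27a1, a fibrillar chain known mainly from cartilage, ranged from 6.64 to 6.93 in NZB_W hearts and from 6.57 to 6.64 in NZW hearts.

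Among the basement membrane genes, the 2 type IV chains that form the scaffold in most tissues had similar values. Col4a1 read 10.37, 10.19 and 11.30 in NZB_W hearts, against 10.13 and 10.64 in NZW hearts. Col4a2 read 10.14, 9.89 and 10.76 in NZB_W hearts, against 9.90 and 10.15 in NZW hearts. Both genes ordered the arrays the same way apart from NZB_W array 2 and NZW array 1, and both had NZB_W array 3 on top. Their differences were 0.23 (SE 0.39, limma adjusted p = 0.917) for Col4a1 and 0.24 (SE 0.28, limma adjusted p = 0.886) for Col4a2, and -0.11 and -0.010 without NZB_W array 3. The genes lie head to head on chromosome 8, on the minus and plus strands, with annotated starts 21 bases apart in GRCm38.p6 (positions 11312826 and 11312805).

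The other type IV chains varied less. Col4a5, a chain of the kidney and muscle networks whose human counterpart is mutated in Alport syndrome, read 7.95, 8.18 and 8.63 in NZB_W hearts, against 8.36 and 8.44 in NZW hearts. Its difference was -0.15 (SE 0.21), and -0.33 without NZB_W array 3. Col4a3 and Col4a4, the chains that join Col4a5 in the glomerular basement membrane, differed by 0.15 (SE 0.14) and -0.039 (SE 0.15), or 0.16 and -0.073 without NZB_W array 3, and in neither was NZB_W array 3 the highest.

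Col18a1 and Col15a1 encode the multiplexins, collagens of basement membrane zones whose C-terminal fragments are endostatins. Col18a1 read 6.31, 6.23 and 7.57 in NZB_W hearts, against 6.31 and 6.30 in NZW hearts. Here 4 hearts lay within 0.1 log2 unit of each other and NZB_W array 3 stood alone, 1.30 above the other NZB_W arrays. The difference of 0.40 (SE 0.45, limma adjusted p = 0.884) was -0.033 without it. Col15a1 read 7.59, 7.88 and 8.57 in NZB_W hearts, against 7.88 and 7.88 in NZW hearts, a difference of 0.13 (SE 0.31), and of -0.15 without NZB_W array 3.

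Of the remaining kinds, type VIII collagen, a short-chain network former of vessel walls that also accumulates in remodelling hearts, gave the largest difference. Col8a1 read 7.60, 8.03 and 9.69 in NZB_W hearts, against 7.48 and 7.52 in NZW hearts. It was the 1 collagen gene of the 26 tested in which the groups did not overlap. Over all genes tested, every NZB_W array was above both NZW arrays in 7.59%, and every one below both in 9.84%. The NZB_W mean was 8.44 ± 1.10 (SD, n = 3), beside an NZW mean of 7.50 ± 0.030 (SD, n = 2). The log2 difference of 0.94 is a 1.92-fold higher mean, with a 95% interval from -0.79 to 2.67, and did not pass (SE 0.66, limma adjusted p = 0.859). Without NZB_W array 3 it was 0.31. A second Col8a1 probe set differed by 0.59, or -0.088 without NZB_W array 3, and its groups overlapped. The third Col8a1 probe set, the dimmest, differed by 0.38, and on it NZB_W array 3 stood at -0.11 relative to the other NZB_W arrays.

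The type VI chains shared 1 pattern across arrays. Col6a1 read 8.73, 8.97 and 9.82 in NZB_W hearts, against 9.07 and 9.07 in NZW hearts. Col6a2 read 9.15, 9.15 and 9.96 in NZB_W hearts, against 9.44 and 9.35 in NZW hearts. Col6a3, the large chain, read 7.60, 8.07 and 8.93 in NZB_W hearts, against 8.32 and 8.45 in NZW hearts. In each of them NZB_W arrays 1 and 2 were below both controls and NZB_W array 3 above them. The log2 differences were 0.10 (Col6a1), 0.025 (Col6a2) and -0.18 (Col6a3), and -0.22, -0.25 and -0.55 without NZB_W array 3.

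The FACIT collagens, which decorate fibril surfaces, did not share 1 pattern. Col14a1 read 7.28, 7.45 and 8.67 in NZB_W hearts, against 8.03 and 7.60 in NZW hearts, with a difference of -0.015 (SE 0.47) and one of -0.45 without NZB_W array 3. Col16a1 had its highest level on NZB_W array 3 too, at 6.36, against 5.88 to 5.92 on the other 4 arrays. Col12a1 and Col9a1 had their lowest level there, at 5.29 and 4.59, against 5.44 to 5.52 and 4.96 to 4.97 on the other arrays. The probe sets of Col12a1 disagreed. A dimmer one, under the array median on every array, was highest on NZB_W array 3. It read 3.13, 3.29 and 4.62 in NZB_W hearts, against 3.98 and 3.26 in NZW hearts. Col20a1 and Col9a3, together with the anchoring fibril gene Col7a1 and the transmembrane collagen Col25a1, differed between the groups by -0.050 to 0.071, and in none of these was NZB_W array 3 the highest.

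The other 16 collagen genes were below the array median on at least 4 of the 5 arrays and entered no test. They were Col2a1, Col11a1, Col11a2 and Col24a1 of the fibrillar class, Col4a6 of the basement membrane class, and Col6a4, Col6a5, Col8a2, Col9a2, Col10a1, Col13a1, Col17a1, Col19a1, Col22a1, Col23a1 and Col26a1. Several of these are known chiefly from cartilage (Col2a1, Col9a2, Col10a1, Col11a1 and Col11a2) or skin (Col17a1). Fitted with no filter on brightness, their differences ran from -0.26 (Col23a1) to 0.28 (Col11a1), with a lowest adjusted p of 0.873. Col11a1 read 2.93, 2.78 and 3.86 in NZB_W hearts, against 2.88 and 2.94 in NZW hearts, so its high value was again on NZB_W array 3, at a dim level. Col23a1 read 4.17, 3.89 and 4.02 in NZB_W hearts, against 4.25 and 4.33 in NZW hearts, so all 3 NZB_W arrays were below both NZW arrays, under the brightness limit on every array. Just above the brightness limit were Col9a3 and Col4a3, with means of 4.71 and 4.88, and just below it Col6a4 and Col2a1, with means of 4.37 and 4.35.

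By class, the median log2 difference was 0.11 for the 7 tested fibrillar genes, 0.15 for the 7 of the basement membrane and 0.0052 for the 12 others, beside -0.014 for all genes. Without NZB_W array 3 these medians were -0.37, -0.073 and -0.021, beside -0.021 for all genes, so the sign turned in each class. The count below 0 was then 19 of 26 (73.1%), against 56.7% of all genes. Even so, 0 collagen genes passed the limma test in that setting, where 0.00841% of all genes did. Unadjusted p-values under 0.05 occurred for 5 collagen genes (Col1a2, Col3a1, Col4a5, Col5a2 and Col6a2), all lower in NZB_W, and for 6.6% of all genes. The lowest adjusted p among the collagens was 0.653.

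**Figure D2:**
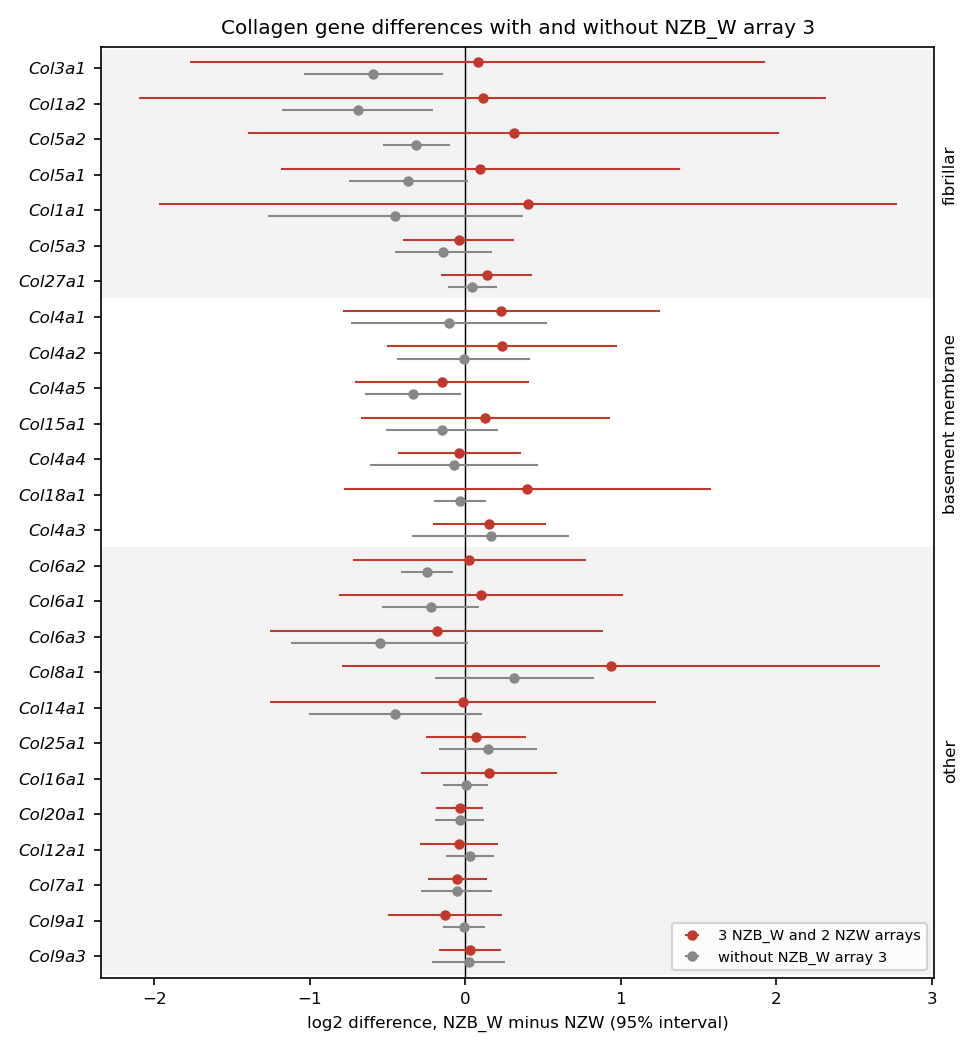
Log2 difference, NZB_W minus NZW, with its 95% interval from limma for the 26 tested collagen genes. Red is the fit on all 5 arrays and grey the fit without NZB_W array 3, where Col1a2 sits at -0.69 in place of 0.11 and the Col1a1 interval is narrower.

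The spread within the NZB_W group was widest for the fibrillar genes. The median SD over the NZB_W arrays was 1.09 for fibrillar genes, 0.44 for basement membrane genes and 0.24 for the others, against 0.13 for all genes. Over the NZW arrays the corresponding median SDs were 0.097, 0.062, 0.055 and 0.071. These rest on 2 arrays, and exact ties gave an SD of 0 for Col4a4, Col6a1 and Col15a1. The NZB_W SDs include NZB_W array 3. In the 3 classes it stood a median of 1.88, 0.74 and 0.24 above the other NZB_W arrays, against 0.019 for all genes.

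Most other probe sets of the fibrillar genes also read high on NZB_W array 3. Beside the probe set standing for each gene, 14 of the 26 genes had 16 further probe sets above the array median. Both other Col5a1 probe sets and the second probe sets of Col1a1, Col1a2, Col3a1, Col5a2, Col14a1 and Col18a1 were 0.93 to 2.88 above the other NZB_W arrays. The second probe set of Col4a5 was 0.077 above them, against 0.56 for the first, and that of Col4a4 was 0.10 above them. Those of Col4a1, Col6a2 and Col8a1 were 0.76, 0.82 and 2.02 above them. The second probe sets of Col27a1, a fibrillar gene, and of Col20a1 stood at -0.015 and -0.11 relative to them, and the third of Col8a1 at -0.11. Of the 16, 8 were more than 1 above the other NZB_W arrays. None of the 16 passed in a limma fit over 20200 probe sets.

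**Figure D3:**
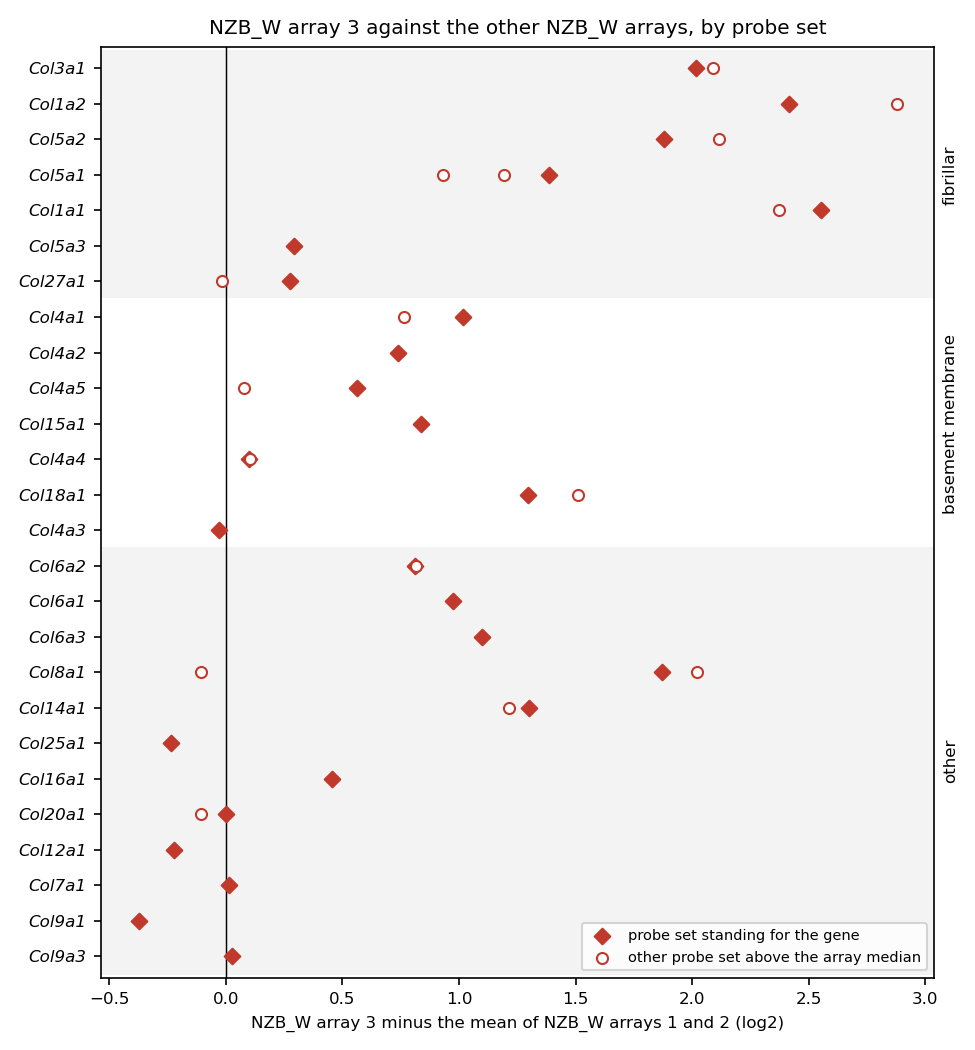
Level on NZB_W array 3 minus the mean of NZB_W arrays 1 and 2 (log2) for each probe set above the array median, by collagen gene. Filled diamonds are the probe sets that stand for a gene and open circles the others, and in Col1a1, Col1a2, Col3a1 and Col5a2 every probe set shown lies at or beyond 1.88.

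Of 25 tested genes that make, modify and cross-link collagen, 12 were above 0 and 13 below, with a median of -0.0042 and 0 that passed. Without NZB_W array 3 the median was -0.12, with 6 above 0 and 19 below. The smallest p was that of Pcolce2, an enhancer of procollagen cleavage, which read 8.79, 8.91 and 8.72 in NZB_W hearts, against 9.17 and 9.27 in NZW hearts (difference -0.41, SE 0.085, limma adjusted p = 0.699). All 3 NZB_W hearts were below both controls in this 1 gene of the 25, against 9.84% of all genes. On NZB_W array 3, 4 of the 25 were more than 1 above the other NZB_W arrays, and these, like Serpinh1 and P4ha1 below, were picked with their values in view. Lox, the lysyl oxidase that cross-links fibrils, read 5.42, 5.32 and 8.49 in NZB_W hearts, against 5.42 and 5.33 in NZW hearts, so 4 hearts were alike and 1 was far above. Its relatives Loxl1 and Loxl3 were 1.09 and 1.20 above the other NZB_W arrays, and the collagen-binding protein Sparc 1.32. The collagen chaperone Serpinh1 and the prolyl hydroxylase subunit P4ha1 were 0.32 and 0.19 above them. Of 6 tested collagen receptors, among them Itga1, Ddr1 and Ddr2, 5 were above 0 (median 0.060), and of 13 laminins and other basement membrane partners 9 were (median 0.058), beside 45.5% of all genes, with 0 that passed in either list. Without NZB_W array 3 the receptors had 3 above 0 and 2 below (median 0.033), and the basement membrane partners 5 above and 8 below (median -0.035).

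Markers of the cells that make matrix were set beside the collagens array by array. Fibroblast markers other than collagens were tested in 14 of 14 cases, with a median difference of 0.021 (-0.098 without NZB_W array 3, with 3 above 0 and 11 below), and 8 of 11 activated fibroblast markers were tested, with a median of 0.21 (-0.29 without NZB_W array 3). Among activated fibroblast markers, 4 of the 8 were more than 1 above the other NZB_W arrays on NZB_W array 3. Postn, encoding periostin, read 7.86, 8.14 and 10.72 in NZB_W hearts, against 8.83 and 8.44 in NZW hearts. Fn1, encoding fibronectin, was 2.01 above the other NZB_W arrays, Cilp 2.67 and Comp 2.51. Acta2, Thbs4 and Fap, also on this list, were 0.81, 0.19 and 0.18 above them. Of the general fibroblast markers 3 of 14 were more than 1 above the other NZB_W arrays, and the list median was 0.26 above them. Those 3 were Fstl1 at 1.70, Mfap4 at 1.52 and Mfap5 at 1.18. Among the other general fibroblast markers, Dcn, encoding decorin, read 12.52, 12.56 and 12.80 in NZB_W hearts, against 12.79 and 12.52 in NZW hearts. Lum, encoding lumican, read 11.18, 11.34 and 11.22 in NZB_W hearts, against 11.58 and 11.43 in NZW hearts. Postn, Cilp, Comp, Fstl1 and Dcn were likewise picked with their values in view.

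Medians relative to each gene's mean over the 5 arrays set the lists beside the collagens. For fibrillar collagens they were -0.58, -0.35 and 1.38 on the NZB_W arrays, against -0.14 and -0.078 on the NZW arrays. For activated fibroblast markers the NZB_W values were -0.53, -0.22 and 1.09, and the NZW values 0.046 and -0.35. Here NZW array 2 lay below NZB_W array 2. In 3 of these 8 markers NZB_W arrays 1 and 2 were both below both NZW arrays, against 17.4% of all genes. For the genes that make, modify and cross-link collagen, the NZB_W values were -0.16, -0.055 and 0.23, and the NZW values -0.018 and -0.019. Macrophage markers had NZB_W values of -0.00068, -0.017 and 0.80, beside NZW values of -0.11 and -0.57, and their group difference was above 0 in 12 of 12, with 0 that passed. Their median difference was 0.61, and 0.38 without NZB_W array 3. Smooth muscle and pericyte markers reached 0.47 on NZB_W array 3, endothelial markers 0.18 and fibroblast markers 0.18, while cardiac muscle markers stayed at -0.019. Adipocyte, Schwann cell and cartilage or valve markers had 2, 3 and 4 tested members, with median differences of -0.41, -0.036 and -0.032, or -0.54, -0.036 and -0.32 without NZB_W array 3. In RNA of whole hearts, more cells of a type and more RNA per cell cannot be told apart. The part of these markers, and of RNA integrity, in the collagen values of NZB_W array 3 was not tested.

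**Figure D4:**
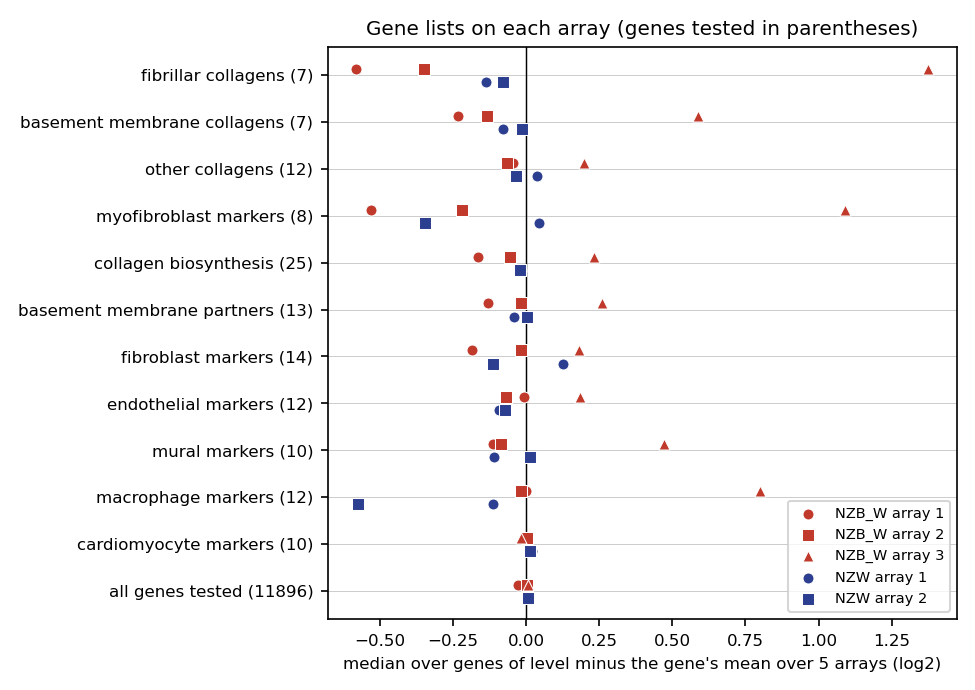
Median over the tested genes of each list of the level minus the gene's mean over the 5 arrays (log2), for each array, with the number of genes in parentheses. NZB_W array 3 is at 1.38 for fibrillar collagens and 1.09 for activated fibroblast (myofibroblast) markers, and close to 0 for cardiac muscle markers and for all genes.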

How the data were processed

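The authors deposited expression levels on a log2 scale, 1 per probe set and array, running from 1.91 to 14.3. RMA, GCRMA and Partek appear, without version or role, per the submitters' processing notes. RMA and GCRMA normalize arrays together and differ in how they treat dim signal. Exact ties between arrays occur, and 53 tested genes read the same on all 5 arrays. No detection calls were used. Sample titles gave the groups and replicate numbers, and each of the 5 columns belongs to 1 sample.

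Of 45101 probe sets, 34945 carry 1 gene symbol and are no Affymetrix control, and 932 carry several. Symbols were checked by Entrez identifier against RefSeq (GRCm38.p6), which matched 34754 and renamed 0. The brightest probe set by mean stood for a gene, and 11896 genes above the array median on at least 2 arrays were fitted with limma 3.58.1 in R 4.3.3 (lmFit, eBayes, two-sided, no covariates) and adjusted by Benjamini-Hochberg over all of them at 0.05. SE and 95% intervals are limma's, and the precision is limited by the number of arrays. The fit was tested on simulated data. Alternatives covered normalization, filter, probe set choice, variance model, array weights, replicate number and arrays left out.

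The collagen genes, classes and gene lists were chosen with earlier results of these data known. The naming rule admits every collagen gene and, from each list, up to 4 genes of smallest p. Replicates are biological by title. Figures were drawn with matplotlib 3.10.9.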

Additional observations from a re-analysis of the deposited data

How the results depend on the processing

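In all settings run, 0 collagen genes passed. Signs were less stable. Leaving out NZB_W array 3 turned the sign in 12 of the 26 genes, and leaving out any other single array turned it in 2 to 5. Deviations of same-numbered arrays from their group means correlated at -0.26 and 0.10. With 2 NZW arrays these values are not independent, so they cannot decide whether the replicate numbers pair the arrays. With the replicate block, which leaves NZB_W array 3 out of the difference, 12 genes turned sign. The arrays are few, and medians of the classes stayed within the replicate spread of their array medians in each setting. NZB_W array 3 itself widens that spread (SD 0.87 for fibrillar genes), so staying within it does not show that a median is stable. The fibrillar median was 0.11 on all arrays and -0.37 without NZB_W array 3.

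The count of all genes that passed was 1, with any single array left out 0 to 1, and 5 with a gene's probe sets averaged, 2 without the _s_at, _x_at and _a_at probe sets, 8 with array weights, 0 with the replicate block, 0 without NZB_W array 3 and NZW array 2 together, and 5 at an adjusted p of 0.1. The fibrillar median was -0.37 to 0.48 with single arrays left out and -0.15 with array weights.

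With the replicate block the turned differences were Col1a1 -0.45, Col1a2 -0.69, Col3a1 -0.59, Col4a1 -0.11, Col4a2 -0.010, Col5a1 -0.37, Col5a2 -0.32, Col6a1 -0.22, Col6a2 -0.25, Col12a1 0.033, Col15a1 -0.15 and Col18a1 -0.033. With array weights they were Col1a1 -0.057, Col1a2 -0.39, Col3a1 -0.36, Col4a1 -0.073, Col4a2 -0.019, Col4a4 0.061, Col5a1 -0.17, Col5a2 -0.13, Col6a1 -0.077, Col6a2 -0.18, Col12a1 0.0076 and Col15a1 -0.0019. Without NZB_W array 3 and NZW array 2 together they were Col1a1 -0.54, Col1a2 -0.62, Col3a1 -0.46, Col5a1 -0.39, Col5a2 -0.34, Col6a1 -0.22, Col6a2 -0.29, Col9a3 -0.054, Col12a1 0.0012, Col15a1 -0.15, Col16a1 -0.016 and Col18a1 -0.041. Quantile normalization gave Col14a1 0.0027, averaged probe sets Col5a3 0.028 and Col25a1 -0.0028, and leaving out the _s_at, _x_at and _a_at probe sets Col20a1 0.040. The second probe sets of Col27a1 and Col20a1, tested separately, gave -0.046 and 0.040. Beyond the leaving out of arrays, the cause was not tested.

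With any single array left out, the differences that turned sign ran from -0.45 to 0.997 (Col1a1), -0.69 to 0.61 (Col1a2), -0.59 to 0.48 (Col3a1), -0.11 to 0.49 (Col4a1), -0.010 to 0.42 (Col4a2), -0.14 to 0.092 (Col4a4), -0.33 to 0.0026 (Col4a5), -0.37 to 0.41 (Col5a1), -0.32 to 0.66 (Col5a2), -0.15 to 0.061 (Col5a3), -0.22 to 0.33 (Col6a1), -0.25 to 0.16 (Col6a2), -0.55 to 0.12 (Col6a3), -0.045 to 0.11 (Col9a3), -0.084 to 0.033 (Col12a1), -0.45 to 0.24 (Col14a1), -0.15 to 0.34 (Col15a1), -0.033 to 0.64 (Col18a1) and -0.023 to 0.15 (Col25a1). Col8a1 kept its sign in these settings, from 0.31 to 1.36, but its second probe set went from 0.59 to -0.088 without NZB_W array 3. Col4a3, Col7a1, Col9a1, Col16a1 and Col27a1 also kept theirs, and Col20a1 ran from -0.072 to 0.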
